A study of Drosophila melanogaster with 57 samples.

Results

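In the *Drosophila* genome, chromosome 4 and the Y chromosome are the ones richest in heterochromatin, the compact and repeat-rich form of chromatin. The regions described here are the rows of a deposited list of piRNA clusters that lie on these 2 chromosomes. The list holds 3356 regions, of which 59 are on chromosome 4 and 172 on the Y, 231 in all, and 3124 are on the 5 large arms. Each row gives only a position in the dm6 genome and a name, without read count, strand, or library, so no value below has a spread between replicates. Regions of 1 chromosome are not replicates of it, and no test was made of any difference between chromosomes or between regions and gaps. Intervals are exact 95% binomial ones (Clopper-Pearson) and describe counting only.

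The list was made from small RNA reads, for which 6 groups of 3 libraries were sequenced. The ovary groups were the wild-type stock w1118, *bam* mutants (bamΔ86), *bgcn* mutants (bgcn20093 and bgcn20915), and ovaries that express the active BMP receptor tkvM1 from a UASp transgene, driven in germ cells by *nos-gal4*. The other groups were cultured germline stem cells (GSCs) and the somatic support cells (SCs) grown with them, sorted by GFP from 1 line that carries vasa-GFP, hs-bam, and bamΔ86. Whole mutant ovaries hold somatic cells beside the germ cells that accumulate in them. The sources used here do not say which libraries were scanned together or which of them gave rise to a region. The depth of each library is not given by the list. The study also supplies counts of piRNA start positions for each group, which were not used here.

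piRNAs are small RNAs that guide Piwi proteins to the transcripts and the loci of transposable elements (TEs). A piRNA cluster is a stretch of the genome that gives rise to many of them, and the best known clusters lie in heterochromatin near centromeres and telomeres and hold remnants of TEs. Chromosome 4, also called the dot chromosome, is packaged largely as heterochromatin although its genes are expressed in many tissues. The Y chromosome is almost entirely heterochromatic. Its few single-copy genes work in the male germ line, and several of them have giant introns filled with repeats. Females of this species ordinarily carry no Y, and the labels name ovaries without stating a karyotype.

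The sequences that follow show examples of repeated words in regions and gaps, and what lies on either side of a region's edge. The first set is the 25-base word (25-mer, on either strand) that occurs most often in each kind of sequence among words with no copy on 1 of the large arms, which is named with the processing. This leaves out 42.3% of the 25-mers of Y regions, so words left out may occur more often than those shown.
Y regions: aaaacaaccaggactatattcggag
Y gaps: taagataagataagataagataaga
Chromosome 4 regions: aaagtaaagtaaagtaaagtaaagt
Chromosome 4 gaps: attattatgattattatgattatta
The word of the Y regions has 85 copies on the Y, all of them in regions, and 16 on other assembled chromosomes. On the Y, 9 regions hold it, and its first copy there lies at chrY:846666-846690. The word of the Y gaps is a tandem of a 5-base unit with 87 copies (first at chrY:1417117-1417141), none of them in a region and none on another assembled chromosome. On chromosome 4, the word of the regions has 15 copies (first at chr4:1320417-1320441), 12 of them in TART-A, an element of the telomere. Another 10 copies lie on other assembled chromosomes. The word of the gaps has 234 copies (first at chr4:1235125-1235149), all in 1 gene, *Cadps*, and none in a region.

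The second set was chosen after the values had been seen. It shows the edge of a region beside a gene, once on each chromosome, and a stretch of each of the multicopy gene families of the Y. All runs read 5′ to 3′ along the gene.
Ppr-Y (chrY:1636341-1636623, plus strand; the first 50 bases are the end of a region, and capitals mark the first coding bases): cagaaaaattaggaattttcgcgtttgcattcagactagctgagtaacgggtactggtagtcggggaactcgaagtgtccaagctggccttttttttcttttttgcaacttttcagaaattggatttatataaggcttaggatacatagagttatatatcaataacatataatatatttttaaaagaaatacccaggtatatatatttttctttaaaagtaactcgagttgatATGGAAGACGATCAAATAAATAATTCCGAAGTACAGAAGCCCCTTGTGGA
RpS3A (chr4:67208-67434, minus strand; capitals mark the bases within the region, and the gene starts right after the last of them): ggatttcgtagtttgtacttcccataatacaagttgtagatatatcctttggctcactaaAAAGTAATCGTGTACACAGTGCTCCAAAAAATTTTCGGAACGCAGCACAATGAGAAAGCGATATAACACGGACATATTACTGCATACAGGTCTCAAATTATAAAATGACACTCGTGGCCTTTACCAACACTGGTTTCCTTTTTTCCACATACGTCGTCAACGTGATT
Su(Ste):CR42422 (chrY:870926-870985, minus strand, wholly in a region): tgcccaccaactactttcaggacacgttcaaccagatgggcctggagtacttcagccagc
Mst77Y-4 (chrY:3285625-3285684, plus strand, in a gap): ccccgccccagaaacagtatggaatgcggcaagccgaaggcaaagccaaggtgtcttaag
The region before *Ppr-Y* ended 183 bases short of the start codon. The region of *RpS3A* began 167 bases upstream of the start of the gene. Both stretches around gene edges are nearly unique in the genome, with 98.8% and 100% of their 25-mers found once in the assembled chromosomes. The stretch from Su(Ste) and that from Mst77Y are both repeated, with a median of 76 and of 18 copies per 25-mer, yet the first lies in a region and the second in a gap.

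Regions took up most of both chromosomes. They covered 73.0% of the sequenced bases of chromosome 4 and 81.9% of those of the Y, with unsequenced bases (N) left out. The 5 large arms were covered by 22.0% (X) to 38.6% (2R), so both chromosomes lay above each of the 5 arms. The median region was 9972 nt wide on chromosome 4 (2014 to 83958 nt) and 8149 nt on the Y (2026 to 134691 nt). Regions of 10000 nt or more made up 29 of 59 on chromosome 4 and 69 of 172 on the Y. The gaps between neighboring regions had a median of 3590 nt on chromosome 4 (58 gaps, 942 to 39900 nt) and 2906 nt on the Y (171 gaps, 451 to 92543 nt). On the arms, median regions were 4966 to 7574 nt wide and median gaps 6266 to 15005.5 nt wide. Both chromosomes thus had wider median regions and narrower median gaps than each of the 5 arms, and their own quartiles overlapped. The medians themselves depend on narrow regions and gaps. With only regions of at least 5000 nt, the median gap was 7164.5 nt on chromosome 4, 4560 nt on the Y, and 8875.5 to 28094 nt on the arms. With regions within 5000 nt merged, the median width was 18000 nt, 23131 nt, and 6070.5 to 10219.5 nt, so the order to the arms was kept under both. Unsequenced bases made up 28.3% of the gap bases of the Y, where 35 of 171 gaps held some, and 4.51% of those of chromosome 4. Along chromosome 4, coverage in windows of 50 kb ranged from 14.0% (chr4:50001-100000) to 100% (chr4:950001-1000000). Along the Y, windows of 100 kb ranged from 49.3% (chrY:3200001-3300000) to 100% (chrY:2500001-2600000).

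**Figure D1:**
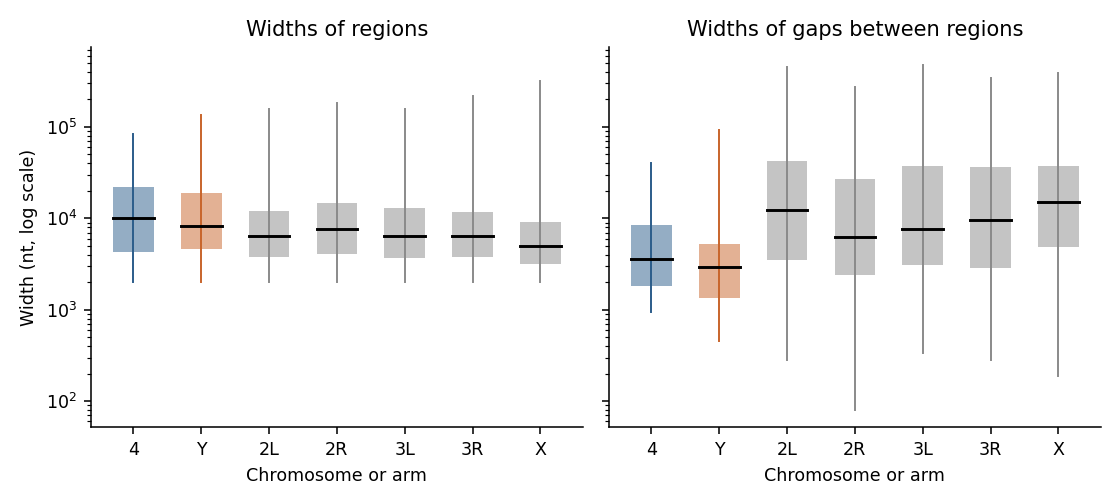
Widths of regions (left) and of gaps between neighboring regions (right), in nt on a log scale, for chromosome 4 (59 regions), the Y (172 regions), and each large arm. Black lines are medians, boxes the quartiles, and thin lines run from the lowest to the highest width. The median gap of 3590 nt on chromosome 4 and 2906 nt on the Y lies below that of each arm.

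In the methods of the study, neighboring regions within 1000 nt were merged and regions over 2000 nt kept. Every region on the 2 chromosomes was wider than 2000 nt, but 1 gap on chromosome 4 and 6 on the Y were narrower than 1000 nt. The numbers in the region names run in order along the genome and skip some. On chromosome 4, 59 of the 95 numbers spanned were used, and on the Y 172 of 267 (62.1% and 64.4%, against 41.2% to 53.6% on the arms). Gaps whose neighbors have consecutive numbers were narrower, with medians of 2389 nt (37 gaps) on chromosome 4 and 1602 nt (113 gaps) on the Y. Gaps that skip a number had medians of 8429 nt (21 gaps) and 6103.5 nt (58 gaps). What a skipped number stands for is not given in the sources used here.

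The widest region on chromosome 4 (chr4:359889-443846) spans 8 genes, among them *Hcf*, a chromatin cofactor, *dati*, a zinc finger gene, and *lgs*, a co-activator of Wnt signaling. The next (chr4:949542-1025431) spans 7, including *toy*, a Pax6 gene of eye development, and *fuss*, a gene of the Ski/Sno family. The third (chr4:1252203-1323564) has 84.2% of its bases in annotated TE insertions and meets the end of *Cadps*, and it overlaps with the canonical cluster of this chromosome. The others of the 5 widest (chr4:785866-840026 and chr4:1147854-1196441) hold *Sox102F* and *pho*, the latter a DNA-binding Polycomb protein. Of the 2 narrowest, the one of 2014 nt (chr4:265753-267766) holds no gene but 2 TE insertions, and the one of 2208 nt (chr4:65167-67374) holds *RpS3A*, a ribosomal protein gene, and the snoRNA gene within it. That small region sits alone, with a gap of 10361 nt before it and one of 38186 nt after it.

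On the Y, 3 of the 5 widest regions hold no gene. The widest (chrY:2489131-2623821, 134691 nt) is 89.2% repeat-masked and has 27 insertions of the element 1360 and 3 Su(Ste) genes. The region at chrY:865857-941872 is 93.6% repeat-masked and meets 10 Su(Ste) genes. Those at chrY:1220234-1322842, chrY:3457227-3539063, and chrY:1564528-1636390 have no gene and are 64.2%, 52.8%, and 60.7% repeat-masked. The 2 narrowest, of 2026 and 2036 nt, each lie in an intron of a single gene, *WDY* and *Ppr-Y*.

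Repeat-masked bases separated regions from gaps on the Y and much less on chromosome 4. On the Y, 58.1% of the bases of regions were repeat-masked (lower case in the reference) and 31.8% of those of gaps. On chromosome 4 the values were 29.0% and 25.9%. Single regions ranged from 5.15% to 64.0% on chromosome 4, with a median of 27.2%, and from 5.99% to 100% on the Y, with a median of 52.5%. At least 50% of the bases were masked in 4 of 59 regions on chromosome 4 and in 90 of 172 on the Y. Read the other way, 89.2% of the masked and 73.5% of the unmasked bases of the Y lay in regions, against 75.1% and 72.1% on chromosome 4.

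Copy number gave the same order. Of the 25-mers in Y regions, 14.1% occurred once in the assembled chromosomes, and the median 25-mer had 11 copies. In Y gaps, 35.3% occurred once and the median was 3 copies. On chromosome 4, 81.8% of the 25-mers in regions and 84.8% of those in gaps occurred once. Regions of chromosome 4 are thus made mostly of sequence found at 1 position, and those of the Y mostly of sequence that recurs. The share of the Y that lay in regions rose with the number of copies, from 64.4% of the 25-mers with 1 copy to 80.6% of those with 2 to 10 copies and 89.9% of those with 11 to 100, and was 87.3% above 100 copies. On chromosome 4 the shares were 72.3%, 80.1%, 66.2%, and 78.6% in the same order. Neighboring 25-mers overlap, so these shares are descriptions of sequence and not counts of independent items.

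Y regions shared much of their sequence with other chromosomes. Of their 25-mers, 54.1% also occurred on another assembled chromosome, against 31.6% in Y gaps. When unplaced scaffolds not titled for the Y were added, the share in regions became 66.9%, which leaves 33.1% found nowhere else. Per region the share on another assembled chromosome ranged from 8.58% to 99.1%, with a median of 50.8%, and no Y region was at 0. It was at least 50% in 92 of 172 regions and under 10% in 1, a region at chrY:363748-376993. On chromosome 4, 14.2% of the 25-mers in regions and 12.9% of those in gaps also occurred elsewhere, and the median region was at 3.96%. According to the study's methods, multi-mapped reads were kept while clusters were sought, and a minimum of unique piRNA reads per kb was asked of each region. The sources used here do not say whether unique means mapped to 1 position or distinct in sequence, so it is not known how far a Y region rests on sequence that recurs. Whether reads from copies on other chromosomes gave rise to the Y regions was not tested. The list carries no reads, and the study's counts of piRNA start positions were not used.

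**Figure D2:**
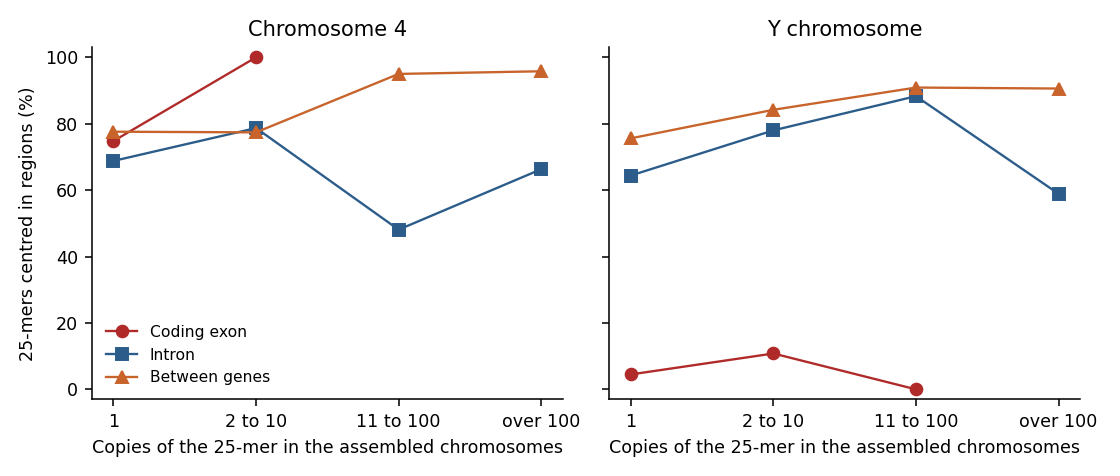
Percent of 25-mers whose midpoint lies in a region (y axis), by the number of copies in the assembled chromosomes (x axis), for coding exons, introns, and sequence between genes on chromosome 4 (left) and the Y (right). Classes with under 1000 25-mers are not drawn. On the Y, coding exons stay at or below 10.8% (4.49% at 1 copy) and introns (64.4% at 1 copy) and sequence between genes (75.6%) lie higher.

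Annotated TE insertions were far more numerous on chromosome 4, with 566 insertions, than on the Y, with 80. Of the sequenced bases, 25.1% on chromosome 4 and 5.57% on the Y lie in annotated insertions, and 28.1% and 53.3% are repeat-masked. These are counts of annotated insertions only, and how much other TE sequence the Y holds was not tested. On the Y, insertions made up 5.41% of the bases of regions and 6.29% of those of gaps, an order opposite to that of repeat-masked bases. On chromosome 4 they made up 27.3% and 19.0%, so by this measure regions and gaps differed more there. Regions met 476 of the 566 (84.1%) and 79 of the 80 (98.8%), against 64.9% (X) to 80.7% (2R) of the insertions on the arms. Chromosome 4 was thus close to the highest arm. A longer insertion is met more easily, and the median insertion had 245 nt on chromosome 4 and 1180 nt on the Y. By bases, 79.5% of the insertions lay in regions on each of the 2 chromosomes, against 49.0% (2L) to 64.9% (2R) on the arms. All sequenced bases were covered by 73.0% and 81.9%, so insertions of the Y lay slightly below the whole. The most frequent family of chromosome 4 is INE-1, an old and short element, of whose 344 insertions 284 were met. The element 1360, a DNA transposon common to both chromosomes, had 53 of 60 insertions met on chromosome 4 and 57 of 57 on the Y. All 15 HeT-A insertions, elements that build telomeres, lay wholly in regions, as did 458 of all 566 insertions (80.9%). The 15 are in the same region (chr4:1252203-1323564), so they are not independent.

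Long insertions were covered unevenly. Insertions of 3000 nt or more numbered 27 on chromosome 4 and 21 on the Y, with 75.8% and 70.6% of their bases in regions. On the Y, insertions of 500 nt to under 3000 nt were at 95.9%. Of the insertions of 3000 nt or more, 21 of 27 on chromosome 4 and 9 of 21 on the Y lay wholly in regions, among them mdg1 and 1731 on the Y. Of insertions of any length, 458 of 566 (80.9%) and 64 of 80 (80.0%) did. A longer insertion fits wholly inside a region less easily. The examples named here, most of them low, were chosen after their values were seen. The 4 insertions of the retrotransposon opus on the Y had 17.3% to 22.2% of their bases in regions, and the insertion of blood had 40.3%. On chromosome 4, the insertion of Tirant within *CG11360* had 5.51% in regions, and the gap there (chr4:671832-679887) lies wholly inside it. An insertion of the I element in the gap of 38186 nt had none. The methods of the study describe a first step in which reads that matched canonical TE sequences were set apart, and only the remaining ones were placed on the genome. Its part in these gaps was not tested.

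The right end of chromosome 4 shows the same on a larger scale. The canonical cluster there, cluster3/102E (chr4:1254747-1344594), was covered by 81.7%, in 2 regions, and 90.0% of it is annotated as TE insertions. The 7 HeT-A insertions of 3000 nt or more all lay wholly in the first of these regions. The pair of TART-A insertions of that length were at 32.1% and 31.9%, because a gap of 8382 nt opens in each. The pair of gaps (chr4:1323565-1331946 and chr4:1336547-1344928) have the same sequence, with 0 of 8382 bases different. Between and after them lie regions of 4600 and 3174 nt that hold no gene. The last region ends 29 bases before the end of the assembled chromosome.

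Most genes of chromosome 4 were met by regions. Of 114 genes, 102 were met by at least 1 bp (89.5%, interval 82.3% to 94.4%), where 42.1% of all genes of the assembled chromosomes were. Wholly inside regions were 46 (40.4%, interval 31.3% to 49.9%), against 23.6% of all genes. With 73.0% of the chromosome covered, a gene would often be met wherever it lay. Genes take up 76.8% of the bases of regions and 83.8% of those of gaps. Only 3 of 59 regions met no gene (5.08%, interval 1.06% to 14.1%), against 12.7% of the whole list. Coding exons were covered by 75.3%, introns by 68.3%, and sequence between genes by 79.5%.

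The starts of genes on this chromosome lay in gaps more often than their ends. Of 80 protein-coding genes, 40 had the annotated start in a region (interval 38.6% to 61.4%) and 60 the annotated end (interval 64.1% to 84.0%). Of all sequenced bases of the chromosome, 73.0% lay in regions. The order was the same on each of the 5 arms. There, 20.3% (3L) to 36.7% (2R) of protein-coding genes had the start in a region and 30.9% (3L) to 45.5% (2R) the end. On chromosome 4, start in a gap and end in a region held for 28 genes, the reverse for 8. Coverage was 49.0% in the 250 nt before starts and 78.0% about 4 kb before them, and 79.9% in the last 250 nt before ends. On the 5 arms pooled, it was 26.6% just before starts, 30.8% about 4 kb before them, and 38.5% just before ends. The arms thus dipped at starts too. Of the 58 gaps of chromosome 4, 26 held at least 1 such start (44.8%, interval 31.7% to 58.5%), and these were wider, with a median of 6858 nt against 2126 nt for the rest. A wide gap holds more of everything, so the width and the start cannot be told apart here.

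**Figure D3:**
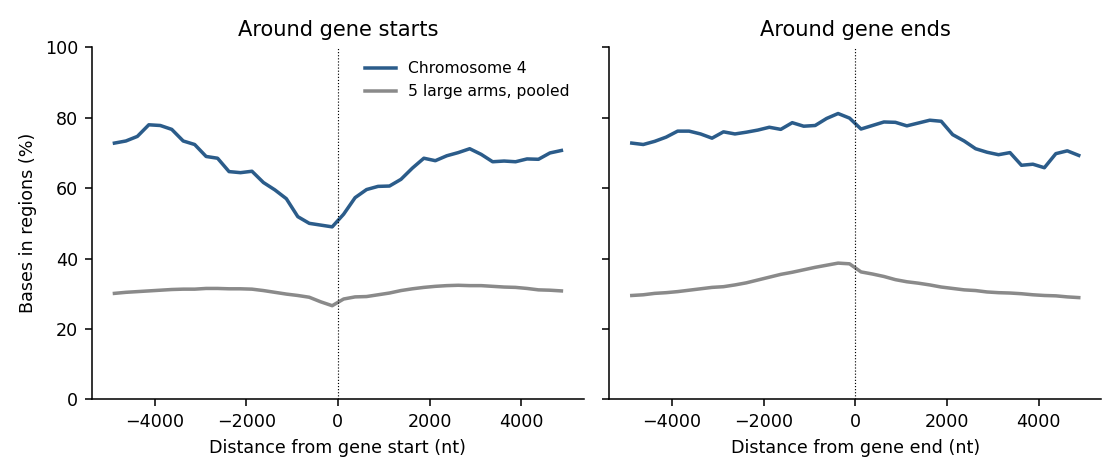
Percent of bases in regions (y axis) in bins of 250 nt by distance from the annotated start (left) and end (right) of protein-coding genes, for the 80 genes of chromosome 4 and for the genes of the 5 large arms pooled. Negative distances are upstream. On chromosome 4 the curve dips to 49.0% just before starts. Before ends it rises from 72.8% at the left edge to 79.9% just before them. The curve of the arms also dips just before starts, to 26.6%.

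The list of patterning transcription factors on chromosome 4 has 13 genes, with the cofactor *Hcf* among them. Of these genes, 11 were met, 7 lay wholly inside regions, and the median share of the gene body was 100%. Over all 80 protein-coding genes of the chromosome, 73 were met (91.2%), 21 lay wholly inside (26.2%), and the median share was 85.8%. A list with nearly all of its members met is thus near the share of the whole chromosome, here and for the lists that follow. *ey* and *toy*, the Pax6 genes that start eye development, were wholly inside, as were *Sox102F*, *dati*, *pho*, *fuss*, and *Hcf*. *sv*, a Pax gene of sense organs, was at 79.4%, *ci*, the effector of Hedgehog signaling, at 76.0%, and *zfh2*, a homeobox gene of the wing, at 71.7%. *Mitf*, a regulator of lysosome genes, was at 21.7%, but 66.4% of its body is unsequenced, and 92.9% of its exon bases lay in a region. *NfI* and *onecut* had no base in a region. *Sox102F* (33958 nt), *ey* (23485 nt), *dati* (19966 nt), *toy* (18198 nt), and *fuss* (16149 nt) are the 5 longest genes wholly inside.

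All 5 genes of TGF-beta and Wnt signaling were met, as were 91.2% of the protein-coding genes of the chromosome. The ligands *mav* and *myo* were wholly inside and *Actbeta* was at 99.9%. *lgs* was at 99.1%, but *pan*, the TCF factor to whose complex *lgs* contributes, was at 19.4%. Its 44945 nt hold most of the second widest gap of the chromosome (chr4:67375-105560). Its exons and introns differed, with 47.6% of the exon bases and 6.04% of the intron bases in regions.

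The 4 genes of axon guidance were all met, again beside 91.2% of all protein-coding genes. *PlexB*, a semaphorin receptor, was wholly inside, *PlexA* was at 90.3%, *Ephrin* at 81.5%, and its receptor *Eph* at 77.6%. All 8 genes of the synapse and the membrane were met (91.2% of all) and none was wholly inside (26.2% of all), with a median share of 85.5%, close to the 85.8% of all protein-coding genes. *Kif3C*, a kinesin, was at 98.2%, *Gat*, a GABA transporter, at 95.3%, *unc-13*, which primes synaptic vesicles, at 93.3%, and *Syt7*, a synaptotagmin, at 90.0%. *Cadps*, which acts in the release of dense-core vesicles, was at 81.1% and was cut by 4 gaps, the most of any gene on the chromosome. *PMCA*, a calcium pump, was at 74.2%, *Ekar*, a glutamate receptor subunit, at 52.2%, and *mGluR*, a metabotropic glutamate receptor, at 38.1%.

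All 8 genes that most cells use were met (91.2% of all), with a median share of 96.9% (85.8% for all) and 4 wholly inside (26.2% of all). *RpS3A*, *Rad23*, *gw*, which acts in miRNA silencing, and *Crk*, a signaling adaptor, were wholly inside. *Gyf* was at 93.8%, *MED26*, a Mediator subunit, at 82.7%, *eIF4G1*, a translation initiation factor, at 79.5%, and *ATPsynbeta*, a subunit of the mitochondrial ATP synthase, at 58.6%. For *ATPsynbeta* the region took 82.1% of the exon bases and 5.06% of the intron bases. The large structural genes were the lowest list, with *Ank* (ankyrin) at 59.4% and *bt*, which encodes a titin-like muscle protein, at 15.9%.

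The genes that fell in the gaps of chromosome 4 were few. Of the 12 genes with no base in a region, 7 are protein-coding. *Pur-alpha* (9242 nt), *onecut* (9095 nt), and *NfI* (8195 nt) are the longest, followed by *CG32006*, *CG46466*, *Arl4*, a small GTPase, and *CG31997*, of 2775 to 1407 nt. The other 5 are the noncoding *asRNA:CR43957*, *asRNA:CR45198*, *lncRNA:CR44023*, *lncRNA:CR43958*, and *lncRNA:CR45200*. Of the 26 noncoding RNA genes of the chromosome, 21 were met (80.8%, interval 60.6% to 93.4%), and all 7 of its pseudogenes were, beside 89.5% of all its genes. *Pur-alpha* and *NfI* sit in the gaps that are next in width after the 3 widest (chr4:554293-568319, 14027 nt, and chr4:267767-281450, 13684 nt). The widest gap (chr4:723272-763171, 39900 nt) lies almost wholly in *bt*, with 97.2% of its bases in that gene. It is 16.2% repeat-masked, and 0.499% of its 25-mers are repeated. The gap in *pan* is 31.6% repeat-masked. The third (chr4:1196442-1218909) holds the only unsequenced run of the chromosome, of 17000 bases. The narrowest gap, 942 nt, is inside *CG31999*.

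Of 113 genes, 43 were met (38.1%, interval 29.1% to 47.7%), although 81.9% of the chromosome was covered. The share is close to the 42.1% of all genes, and 32 were wholly inside. Regions without a gene numbered 104 of 172 (60.5%, interval 52.7% to 67.8%), against 12.7% of the whole list. Of the Y regions, 92.4% met no exon, and of those of chromosome 4, 6.78%. Coding exons make up 1.95% of the sequenced bases of the Y and 20.0% of those of chromosome 4. Where exons are rarer, fewer regions meet one wherever they lie. Coverage depended on the kind of sequence. Coding exons of the Y were covered by 4.74%, introns by 77.5%, and sequence between genes by 86.6%.

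Counted as items, 93 of the 102 coding exons of the Y had no base in a region (91.2%, interval 83.9% to 95.9%), 9 were wholly inside, and none was cut by an edge. On chromosome 4, 197 of 670 had none (29.4%, interval 26.0% to 33.0%). The exons outside had a median distance of 1360 nt to the nearest region (21 to 43375 nt), and 41 of the 93 were within 1000 nt. The median on chromosome 4 was 2804 nt, and such distances are bounded by the widths of the gaps. The nearest was an exon of *kl-3*. Introns of 10000 nt or more were met in 19 of 20 cases on the Y. Those of 1000 nt to under 10000 nt were met in 8 of 12, and those under 1000 nt in 3 of 48. A longer intron is met more easily. By bases, unsequenced ones counted, 73.5%, 39.3%, and 18.0% of these introns lay in regions, in the same order. On chromosome 4, 6 of 6, 136 of 173, and 356 of 524 introns were met. There, 78.5% of the bases of the longest class lay in regions, 68.8% of the next, and fewer of the shortest. Exons of 1 gene share a transcript and are not independent. The exons are mostly unique sequence, since 14.0% of coding 25-mers of the Y were repeated against 74.2% of intron 25-mers. Among 25-mers that occur once, 4.49% of those in coding exons, 64.4% of those in introns, and 75.6% of those between genes were in regions.

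**Figure D4:**
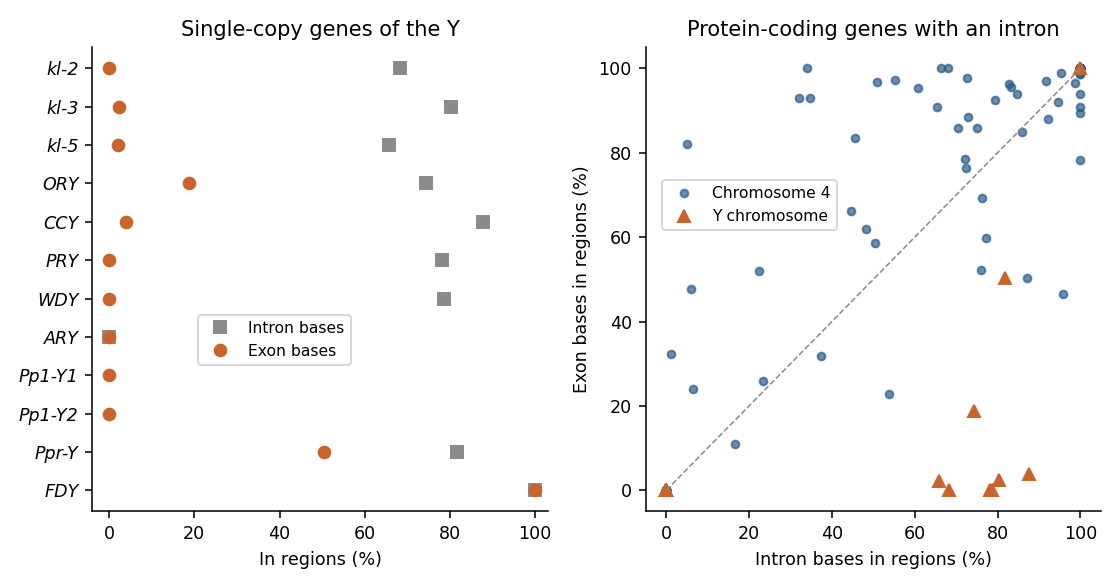
Left, percent of exon bases (circles) and of sequenced intron bases (squares) in regions for the 12 single-copy genes of the Y. Right, the same shares plotted against each other for each protein-coding gene with an intron on chromosome 4 (circles) and the Y (triangles), with a dashed line where they are equal. Genes of the Y lie below the line, except *FDY* at 100% on both axes and the genes at 0 on both, while those of chromosome 4 lie on both sides of it.

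The dynein heavy chain genes of the sperm tail are among the longest of these genes. *kl-3* spans 226785 nt and was crossed by 15 regions, which took 2.41% of its exon bases and 80.3% of its sequenced intron bases. For *kl-5* the shares were 2.16% and 65.8%, and for *kl-2* 0 and 68.3%. *PRY* had no exon base in a region and 78.2% of its intron bases, and *WDY*, a WD40 repeat gene, had none and 78.7%. The coiled-coil genes *CCY* and *ORY* were at 3.90% and 18.7% for exons and 87.7% and 74.3% for introns. *Ppr-Y* was the most divided, with 17 regions and 18 gaps, and 50.4% of its exon bases lay in regions. *kl-3* and *WDY* had 16 and 12 gaps. *ARY*, an aldehyde reductase gene, and the phosphatase genes *Pp1-Y1* and *Pp1-Y2*, all short, had no base in a region. *FDY* was the only protein-coding gene wholly inside. It is a recent copy of an autosomal gene, and 55.1% of its exon 25-mers also occur on another chromosome, against under 1% for the other 11 genes of the list. The 4 widest gaps of the Y after the first lie in or beside these genes, namely *kl-2* (chrY:637625-670065), *kl-3* and *kl-2* (chrY:557854-587019), *ORY* (chrY:3581774-3600631), and *WDY* (chrY:2470483-2489130). Unsequenced bases make up 22.5%, 56.2%, 87.7%, and 0% of these gaps in the order given.

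The multicopy families of the Y took opposite sides. Su(Ste) genes are repeats on the Y whose piRNAs are known to silence *Stellate*, an X-linked gene, in the testis. All 27 were met and 25 lay wholly inside, but so did most of the sequence around them. Of the 27, 24 are in a stretch of 170521 nt (chrY:869892-1040412) and 3 in another (chrY:2559809-2595311). Outside the genes, 95.5% of the first stretch and 100% of the second lay in regions. The genes of the first stretch are 97.0% repeat-masked, and 14.4% of their 25-mers occur on another chromosome. Mst77Y genes are copies of an autosomal gene for a sperm chromatin protein. None of the 5 was met, and the 18 genes from *Mst77Y-4* to *CR45780* all lie in the widest gap of the Y (chrY:3284542-3377084, 92543 nt), of which 70.2% is unsequenced. The 8 protein-coding genes among them are *Mst77Y-4*, *Mst77Y-7*, *Mst77Y-9*, *Mst77Y-13*, *CG45764*, *CG45765*, *CG45766*, and *CG45770*. Their sequence is repeated as well, with 96.6% of the 25-mers in these 18 genes occurring more than once (median 11 copies), but only 4.44% of it is repeat-masked.

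A stretch of 217695 nt to the left of it (chrY:3050502-3268196) holds 41 pseudogenes and the protein-coding *CG46191*, *CG46192*, and *CG46193*, and none of these 44 genes was met. Yet 17 regions cross the stretch and cover 65.1% of the sequence between the genes. The genes lie in 15 gaps. They too are repeated (86.6% of 25-mers) and little masked (5.0%). The next stretch to the left holds *FDY* and 5 pseudogenes, and 1 region covers all 6 of them. In all, 6 of the 62 pseudogenes of the Y were met, and all 28 of its noncoding RNA genes were, 27 of them Su(Ste). The other, *lncRNA:CR40629*, had 16.6% of its body in a region. Over all genes of the Y, 38.1% were met. On the arms, 20.5% (3R) to 75.7% (X) of the pseudogenes and 18.8% (2L) to 30.2% (2R and X) of the noncoding RNA genes were met.

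Set beside the large arms, the 2 chromosomes stood at opposite ends for coding exons. For introns and sequence between genes they stood on the same side. Exons of noncoding genes or pseudogenes were covered by 87.6% on chromosome 4 and 53.0% on the Y, above each arm (14.1% to 36.9%). Coding exons were covered by 32.3% (X) to 47.8% (2R) on the arms, above the 4.74% of the Y and below the 75.3% of chromosome 4. Introns were covered by 11.5% to 28.0% and sequence between genes by 19.2% to 46.5%, below both chromosomes. On each arm coding exons were covered more than introns, as on chromosome 4 and unlike the Y. Repeat-masked bases were covered by 27.6% to 49.5% on the arms. These are 1 value per chromosome from 1 list, and no test of the differences was made.

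**Figure D5:**
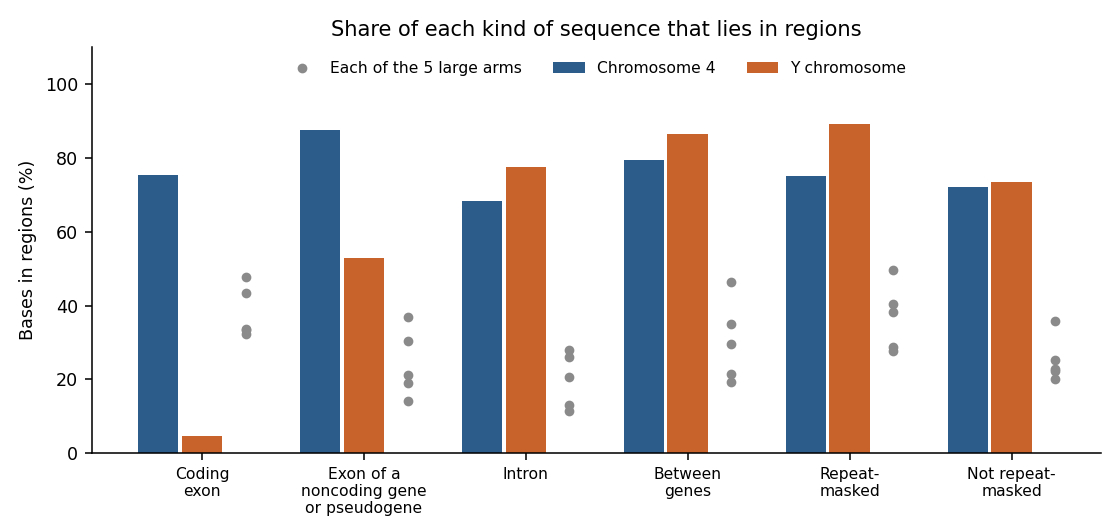
Percent of the sequenced bases of each kind that lie in regions (y axis), for chromosome 4 and the Y (bars, 1 value each, no error) and for each of the 5 large arms (grey points). Coding exons of the Y (4.74%) fall below every arm, while its introns (77.5%) and the sequence between its genes (86.6%) lie above them.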

How the data were processed

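Small RNAs of 6 groups, 18 libraries in all, were sequenced by the authors, who deposited 1 list of region positions, with no count or other measured value. Which of the libraries were scanned for it is not stated in the sources used here. Per the methods, reads of 23 to 35 nt that remained after mapping to TE sequences (Bowtie2 2.2.0) were mapped to dm6 (Bowtie 1.0.0) with multi-mapped reads kept. First regions were merged within 250 nt, kept at 3 unique piRNA reads per kb or more, merged again within 1000 nt, and kept if over 2000 nt. A change in these settings, or in the order of mapping, would move edges, widths, and gaps. The depth of each library is not in the list, and the 27 mRNA samples were not used. No column of another sample was present (0 left out).

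Positions were compared with the soft-masked RefSeq sequence of release 6 (dm6) and with the genes and TE insertions of Ensembl 115, using Python 3.11.15, NumPy 2.4.6, Numba 0.67.0, and SciPy 1.17.1, and plotted with matplotlib 3.10.9. A gene was met if 1 bp of its body lay in a region. Sequence was classed as coding exon, UTR, other exon, intron, or between genes, in that order. Each 25-mer was counted on both strands over the assembled chromosomes. Scripts were tested on simulated regions. Unsequenced bases were left out of shares unless stated.

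Genes named were every protein-coding gene with no base in a region, the 5 longest wholly inside, those cut by the most gaps (where several genes of chromosome 4 tied behind the first, only the first is given), and each gene of fixed lists. Regions named were the 5 widest and the 2 narrowest, with the 5 widest gaps and the narrowest. The 25-mers shown were the most frequent among those with at least 3 different bases and no copy on chromosome arm 2R. The members and lists were chosen with earlier results of these data known. In all, 40 alternatives were planned and 3 were added after seeing the data, when the medians of the arms were also computed with narrow regions left out and with near regions merged.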

Additional observations from a re-analysis of the deposited data

How the results depend on the processing

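No paired analysis was possible because the list gives positions without naming a library and no value per sample. Of 43 alternatives to 14 results, 14 stayed within the 95% interval of the value given (counting only) and 29 fell outside it, as follows. The 3 alternatives that leave out N bases or regions that hold them were chosen after seeing the data.

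With only regions of at least 5000 nt, coverage was 69.3% on chromosome 4 and 77.0% on the Y, the median gap 7164.5 and 4560 nt, the masked share of gaps 26.1% and 35.9%, that of Y regions 58.5%, and 0% of chromosome 4 regions lacked a gene. With at least 10000 nt, coverage was 61.8% and 65.6%. With N counted it was 72.0% and 76.5%, and with only Y regions free of N 49.9%. Merging regions within 5000 nt gave median widths of 18000 and 23131 nt. Measured by annotated TE insertions, the repeat share of regions and gaps was 27.3% and 19.0% on chromosome 4. On the Y, where few insertions are annotated, it was 5.41% and 6.29%, and the order of regions and gaps turned. Measured by repeated 25-mers, it was 18.2% and 15.2%, and 85.9% and 64.7%. Genes of chromosome 4 with at least 50% of the body in regions were 80.7%, and genes with all of it 40.4% (28.3% on the Y). With TE insertions counted as genes, 0% and 41.9% of regions lacked one, and with exons alone 92.4% of Y regions did. Except where the construction shows it (fewer regions, another denominator), the cause of these shifts was not tested.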
